A study of Homo sapiens with 12 samples.

Results

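The subject is the messenger RNA of nicotinic acetylcholine receptor subunits in LnCaP and 22RV1, both human prostate carcinoma cell lines. The members are the genes CHRNA2, CHRNA3, CHRNA4, CHRNA5, CHRNA6, CHRNB1, CHRNB2, CHRNB3, CHRNB4 and CHRNE, taken with every probe set (a set of short oligonucleotides on the array that together measure one transcript) that the platform annotation assigns to that symbol alone. Of 10 listed genes, 9 had such a probe set, which gave 13 of the 22277 probe sets measured: 3 for CHRNA3, 2 each for CHRNB3 and CHRNE, and 1 for each other gene. CHRNA4 was not analysed here, nor was any nicotinic subunit gene outside this list. The groups were LnCaP exposed to 100 µM nicotine tartrate for 24 h, LnCaP left untreated, 22RV1 exposed to the same dose for the same time, and 22RV1 left untreated, with 3 Affymetrix arrays in each and 12 in all. LnCaP was grown from a lymph node metastasis and responds to androgen. 22RV1 came from a prostate carcinoma xenograft that had relapsed after castration of its host. Each line is a single established line, so a difference between them is a difference between these cultures. The labels name no vehicle for the untreated cells, and nothing says that replicates came from separate cultures, so the p-values cover differences among arrays that may be only technical.

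Nicotinic receptors are pentameric cation channels that open when acetylcholine or nicotine binds at the interface between an alpha subunit and its neighbour. The adult muscle receptor contains the CHRNB1 and CHRNE products. Neuronal-type receptors combine ligand-binding alpha subunits (CHRNA2, CHRNA3, CHRNA4, CHRNA6) with CHRNB2 or CHRNB4, and CHRNA5 and CHRNB3 join as accessory subunits. CHRNA5, CHRNA3 and CHRNB4 lie side by side on chromosome 15, in a region known from genetic studies of smoking and lung cancer. In brain, long exposure to nicotine raises the number of receptors at the cell surface, largely through steps after transcription. In the prostate, cholinergic nerves act on the glands mainly through muscarinic receptors, which are a different protein family.

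The values are the authors' deposited log2 expression values, with array medians between 6.61 and 6.71. Prostate luminal markers fitted the labels. All 9 measured markers of 12 listed lay above the array median in LnCaP and 8 of 9 did in 22RV1, and KLK3, the gene of prostate-specific antigen, was 4.24 (log2) higher in nicotine-treated LnCaP than in nicotine-treated 22RV1. Arrays of a group correlated at 0.99 or more and arrays of different lines at 0.933 or less. Because probe sets bind with different strength, the position of a probe set on its array is given for that probe set alone and says nothing of which subunit is more abundant. The table holds no detection call, so a low value is not shown to be above background.

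The subunits spanned a wide range of array positions. CHRNB2, the most common beta subunit of brain receptors, lay above the array median on all 12 arrays, between the 63.1 and the 69.8 percentile. CHRNA5 was also above the median on all 12, between the 50.9 and the 58.1 percentile. CHRNA2 was above it on 11 of 12 arrays and CHRNB1 on 5 of 12, and both of these changed place with the line. The other 9 probe sets were below the median on every array: CHRNB4 stayed between the 3.85 and the 7.04 percentile, and the CHRNB3 probe sets between the 6.67 and the 13.7 percentile.

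**Figure D1:**
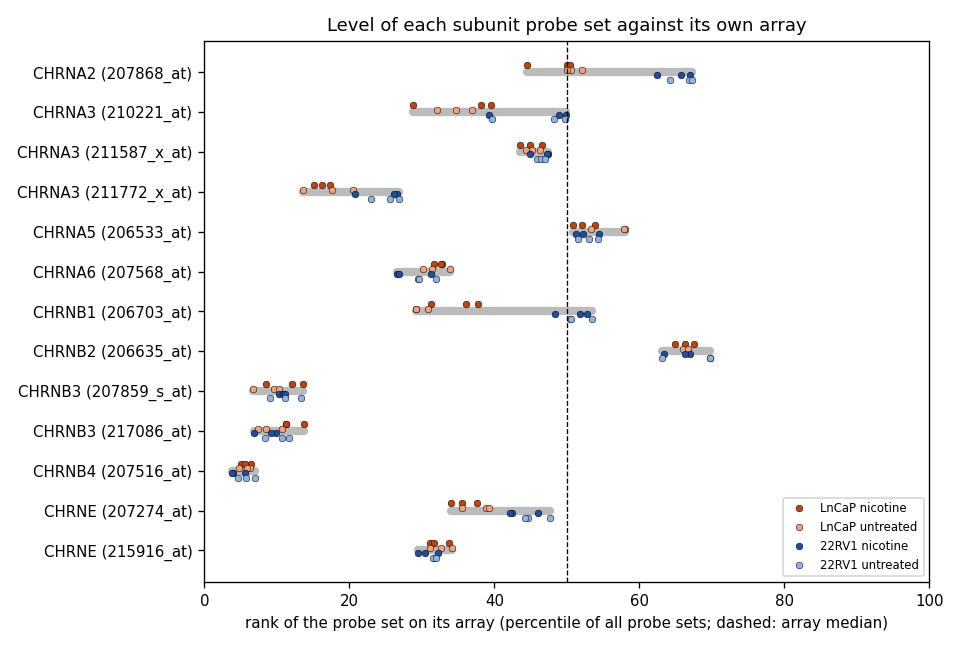
Position of each of the 13 subunit probe sets on its own array, as a percentile of all 22277 probe sets (x axis), with 1 point per array coloured by group, a grey bar for the range and a dashed line at the array median. CHRNB2 and CHRNA5 lay right of the line on all 12 arrays and CHRNB3 and CHRNB4 at the far left.

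In LnCaP 4 subunit genes were lower than in 22RV1 with or without nicotine, at some or all of their probe sets. They were CHRNB1 and CHRNE of the muscle type, and CHRNA2 and CHRNA3 of the neuronal type. The call was an adjusted p under 0.05 in limma (two-sided, Benjamini-Hochberg over all 22277 probe sets). Among nicotine-treated arrays, 5 of 13 member probe sets were called lower and 0 higher. Of all probe sets, 46.2% were called between the treated lines, 23.8% higher and 22.4% lower in LnCaP. Among untreated arrays, 5 of 13 were again called lower and 0 higher, against a background of 43.7%, with 22.8% higher and 20.9% lower. The 5 probe sets called were the same in both comparisons, which use different arrays of the same lines. The members' share of calls was no larger than that of all probe sets. In treated cells the lines did not overlap for 6 of 13 member probe sets, 5 of them lower in LnCaP, against 55.8% of all probe sets, 25.9% with LnCaP lower. Untreated LnCaP lay wholly below untreated 22RV1 for 6 of 13, where 52.3% of all probe sets did not overlap, 24.0% with LnCaP lower. Their median line difference was -0.08 in nicotine-treated cells, against 0.05 over all probe sets, and -0.15 in untreated cells, against 0.04. In such bulk measurements fewer expressing cells and less RNA per cell cannot be told apart.

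Several markers of neuroendocrine cells were lower in LnCaP, as the called subunits were, and neuronal markers went both ways. Of 8 neuroendocrine markers measured out of 9, 1 lay above the array median in LnCaP and 4 in 22RV1, with a mean log2 value of the list of 4.90 to 5.11 on LnCaP arrays and 6.28 to 6.70 on 22RV1 arrays. In nicotine-treated and in untreated cells SCG3 was lower in LnCaP, at -4.12 and -4.29, CHGB at -3.44 and -3.55, SYP at -1.37 and -1.43, ENO2 at -1.64 and -2.01 and SCG2 at -1.21 and -0.81. NCAM1 was higher by 0.48 with nicotine (adjusted p up to 0.0601 without single arrays), and CHGA and INSM1 did not pass. Of 9 neuronal markers measured out of 10, 1 was above the median in LnCaP and 4 in 22RV1, with list means of 5.48 to 5.59 in LnCaP and 6.03 to 6.15 in 22RV1. In nicotine-treated and in untreated cells MAP2 was lower in LnCaP, at -2.80 and -2.78, SNAP25 at -2.16 and -1.85, NEFH at -1.74 and -2.05 and TUBB3 at -1.06 and -0.82, while the neurofilament gene NEFL was higher, at 2.87 and 2.47. The other 4 neuronal markers did not pass, and the list's median difference was -0.02 with nicotine and -0.17 without. Of 12 skeletal muscle markers, 0 were above the median in LnCaP and 1 in 22RV1, with list means of 4.66 to 4.93 in LnCaP and 5.07 to 5.17 in 22RV1. That gap was carried by TNNT1, the slow troponin T gene, at -4.43 with nicotine and -4.46 without, and the means of the other 11, a calculation added after the values were seen, were 4.53 to 4.78 in LnCaP and 4.55 to 4.70 in 22RV1. The defining muscle factors MYOD1 and MYOG averaged 6.22 and 6.10 in nicotine-treated LnCaP and 6.11 and 5.98 in nicotine-treated 22RV1. Of basal and leukocyte markers 0 were above the median in any group, of fibroblast markers 1 in each, and of endothelial markers 1 in LnCaP and 0 in 22RV1. Among all named genes 49.4% were called between the treated lines, 23.5% lower in LnCaP. Between the untreated lines 47.3% were called, 22.2% lower. The part of these cell type markers in the subunit differences was not tested.

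CHRNB1, the beta subunit of the muscle receptor, showed the largest difference in untreated cells among the members. Probe set 206703_at read 5.50, 5.20 and 5.68 in nicotine-treated LnCaP, 5.17, 5.02 and 5.06 in untreated LnCaP, 6.57, 6.95 and 6.83 in nicotine-treated 22RV1 and 6.74, 6.73 and 6.93 in untreated 22RV1. Every LnCaP array lay below every 22RV1 array. The treated lines differed by -1.33 (SE 0.13, adjusted p = 3.572e-06), which is 2.51-fold lower in LnCaP. The untreated lines differed by -1.72 (SE 0.13, adjusted p = 4.431e-07), or 3.29-fold lower.

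CHRNE encodes the epsilon subunit, which replaces the fetal gamma subunit in adult muscle. Probe set 207274_at read 5.62, 5.51 and 5.39 in nicotine-treated LnCaP, 5.49, 5.72 and 5.77 in untreated LnCaP, 6.06, 6.06 and 6.37 in nicotine-treated 22RV1 and 6.25, 6.22 and 6.47 in untreated 22RV1. LnCaP lay below 22RV1 on every array. The difference was -0.66 (SE 0.11, adjusted p = 0.000437) in treated and -0.65 (SE 0.11, adjusted p = 0.000507) in untreated cells, so the mean was 1.58-fold and 1.57-fold lower in LnCaP. The gene's other probe set, 215916_at, did not show it: group means lay between 5.17 and 5.28 and the line differences were 0.09 with nicotine (adjusted p = 0.458) and 0.04 without (adjusted p = 0.773). Across the 12 arrays the correlation between these probe sets was -0.25, a description of 2 probe sets on the same arrays, so the CHRNE result rests on 1 of 2 probe sets.

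CHRNA2, a ligand-binding subunit that in rodent brain is largely confined to few neuron classes, was the neuronal-type gene with the largest line difference. Probe set 207868_at read 6.63, 6.20 and 6.66 in nicotine-treated LnCaP, 6.66, 6.63 and 6.80 in untreated LnCaP, 8.03, 7.97 and 7.68 in nicotine-treated 22RV1 and 8.05, 8.04 and 7.75 in untreated 22RV1. The lines did not overlap. With nicotine the line difference was -1.39 (SE 0.14, adjusted p = 4.152e-06) and without it -1.25 (SE 0.14, adjusted p = 1.187e-05), or 2.63-fold and 2.37-fold lower in LnCaP.

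CHRNA3 encodes the ligand-binding subunit of ganglionic receptors, in which it pairs with CHRNB4. Probe set 210221_at read 5.66, 5.80 and 5.05 in nicotine-treated LnCaP, 5.44, 5.57 and 5.25 in untreated LnCaP, 6.70, 6.62 and 5.82 in nicotine-treated 22RV1 and 6.69, 6.54 and 5.84 in untreated 22RV1. The lines barely separated, the highest treated LnCaP array lying just under the lowest treated 22RV1 array, and replicate 3 was the lowest array of all 4 groups. The line difference was -0.87 (SE 0.27, adjusted p = 0.0187) with nicotine and -0.94 (SE 0.27, adjusted p = 0.0136) without. It lost its call when some single arrays were left out: with nicotine it was -0.71 (adjusted p = 0.0779), -0.75 (adjusted p = 0.0715) and -0.65 (adjusted p = 0.0839) without 22RV1 replicate 1, 22RV1 replicate 2 and LnCaP replicate 3 in turn. In untreated cells it was -0.77 (adjusted p = 0.0612) without 22RV1 replicate 1 and -0.84 (adjusted p = 0.0518) without 22RV1 replicate 2.

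The second CHRNA3 probe set, 211772_x_at, gave the steadier call. It read 4.26, 4.24 and 4.19 in nicotine-treated LnCaP, 4.49, 4.28 and 4.07 in untreated LnCaP, 4.87, 4.84 and 4.52 in nicotine-treated 22RV1 and 4.77, 4.91 and 4.69 in untreated 22RV1. LnCaP lay below 22RV1 throughout, and the difference was -0.51 (SE 0.12) in both conditions, with adjusted p = 0.00385 in treated and 0.00393 in untreated cells. The third, 211587_x_at, had group means between 6.23 and 6.41 and differences of -0.18 (adjusted p = 0.114) in treated and -0.15 (adjusted p = 0.204) in untreated cells, which did not pass. Over the 12 arrays, 210221_at correlated at 0.89 with 211772_x_at and at 0.56 with 211587_x_at, a description of arrays that share their hybridisation. The "_x" in a name marks probe sets whose oligonucleotides may also bind other transcripts, so 211772_x_at and 211587_x_at are uncertain as readings of CHRNA3 alone. Replicate 3 was lowest in all 4 groups for both 210221_at and 211772_x_at, by a mean deviation of -0.42 and -0.14, and 8.26% of all probe sets showed the same.

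**Figure D2:**
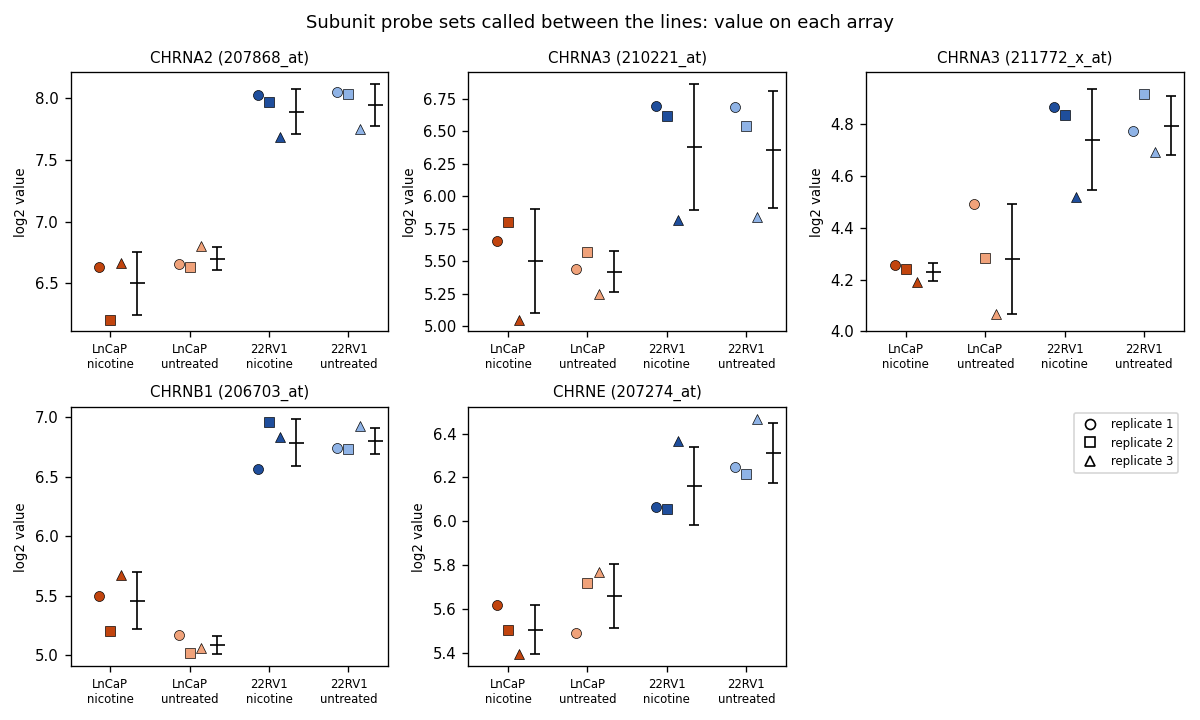
Log2 value (y axis) of the 5 subunit probe sets called between the lines, with 1 point per array, the marker shape giving the replicate number, and the mean with SD beside each group of 3. LnCaP lay below 22RV1 in each panel, and CHRNA3 210221_at was lowest in replicate 3 of every group.

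The stretches of genome before the start of 3 of these called genes are shown because the genes were low in the same line. They come from the RefSeq promoter table on GRCh38.p14, 250 bases upstream of the start, 5' to 3' on the gene's strand. They lie at chr17:7444811-7445060 on the plus strand, chr17:4903099-4903348 on the minus strand and chr15:78620997-78621246 on the minus strand. Capitals mark a match, on either strand, to the GC box GGGCGG (bound by SP1 and its relatives), the N-box TTCCGG (bound by ETS factors in the CHRNE promoter of muscle) or the E-box CAGCTG (bound by myogenic factors).
CHRNB1: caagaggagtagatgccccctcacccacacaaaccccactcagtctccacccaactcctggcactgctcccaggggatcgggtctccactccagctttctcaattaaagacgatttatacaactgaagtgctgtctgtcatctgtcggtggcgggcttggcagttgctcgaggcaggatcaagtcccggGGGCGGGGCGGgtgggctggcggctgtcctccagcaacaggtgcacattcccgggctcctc
CHRNE: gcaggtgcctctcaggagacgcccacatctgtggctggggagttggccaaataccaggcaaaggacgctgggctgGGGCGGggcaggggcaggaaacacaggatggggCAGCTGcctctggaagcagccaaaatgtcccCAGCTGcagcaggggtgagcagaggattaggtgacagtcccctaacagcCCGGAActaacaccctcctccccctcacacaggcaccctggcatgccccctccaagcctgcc
CHRNA3: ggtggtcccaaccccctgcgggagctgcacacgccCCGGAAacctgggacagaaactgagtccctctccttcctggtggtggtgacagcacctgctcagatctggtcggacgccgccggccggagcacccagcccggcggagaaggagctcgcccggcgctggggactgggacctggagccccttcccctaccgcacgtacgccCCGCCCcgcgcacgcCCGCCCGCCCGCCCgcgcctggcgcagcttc

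CHRNA3 had the most GC boxes, 4 within 46 bases of the start, 3 of them overlapping, and a GC content of 73.6%. CHRNB1 held 2 GC boxes, 56 and 61 bases before the start, overlapping by 1 base, and neither other motif, with a GC content of 60.4%. CHRNE held 1 GC box, 1 N-box 62 bases before the start and 2 E-boxes, with a GC content of 64.0%, and the N-box of CHRNA3 lay 215 bases before its start. Of the uncalled subunits outside chromosome 8 with a window, CHRNB4 had 3 GC boxes and 1 E-box and CHRNB2 had none of these letters. Among 35116 windows of the same length, 42.6% held a GC box, 14.5% an N-box and 14% this E-box, and the median GC content was 58.0%. These matches describe sequence and are not shown to be used in either line.

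The remaining subunits were not called between the lines. CHRNA5, which forms no agonist site of its own but changes the calcium permeability and desensitisation of the receptors it joins, read 6.83, 6.74 and 6.96 in nicotine-treated LnCaP, 7.31, 6.92 and 7.29 in untreated LnCaP, 6.89, 7.08 and 6.79 in nicotine-treated 22RV1 and 6.83, 6.94 and 6.99 in untreated 22RV1. The treated lines differed by -0.08 (SE 0.12, adjusted p = 0.621) and the untreated lines by 0.25 (SE 0.12, adjusted p = 0.0987). The groups overlapped in both comparisons. Leaving out LnCaP untreated replicate 2, the low array of its group, raised the untreated difference to 0.38, which passed (adjusted p = 0.0131).

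CHRNA6, a ligand-binding subunit of midbrain dopamine neurons, ranged over the 12 arrays between 4.87 and 5.38. Its line difference was 0.27 (adjusted p = 0.0596) with nicotine and 0.08 (adjusted p = 0.621) without. The first became a call without 22RV1 nicotine replicate 1 (0.38, adjusted p = 0.0153), which was the highest array of its group. CHRNB3, an accessory subunit often found beside CHRNA6, ranged from 3.61 to 4.04 at 217086_at, with line differences of 0.23 (adjusted p = 0.0579) with nicotine and -0.08 (adjusted p = 0.528) without. At 207859_s_at it ranged from 3.60 to 4.08 and the differences were 0.05 (adjusted p = 0.730) and -0.15 (adjusted p = 0.325). These CHRNB3 values sat near the bottom of every array.

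The beta subunits of neuronal receptors did not pass in either condition. CHRNB2 averaged 7.94 ± 0.08 in nicotine-treated LnCaP, 7.95 ± 0.02 in untreated LnCaP, 7.93 ± 0.12 in nicotine-treated 22RV1 and 8.05 ± 0.25 in untreated 22RV1 (SD, n = 3 each). The line difference had a 95% confidence interval of -0.23 to 0.27 with nicotine and -0.35 to 0.15 without. CHRNB4 averaged 3.56 ± 0.04 in nicotine-treated LnCaP, 3.55 ± 0.07 in untreated LnCaP, 3.45 ± 0.07 in nicotine-treated 22RV1 and 3.55 ± 0.07 in untreated 22RV1 (SD, n = 3 each). Its intervals were -0.05 to 0.27 with nicotine and -0.16 to 0.16 without.

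**Figure D3:**
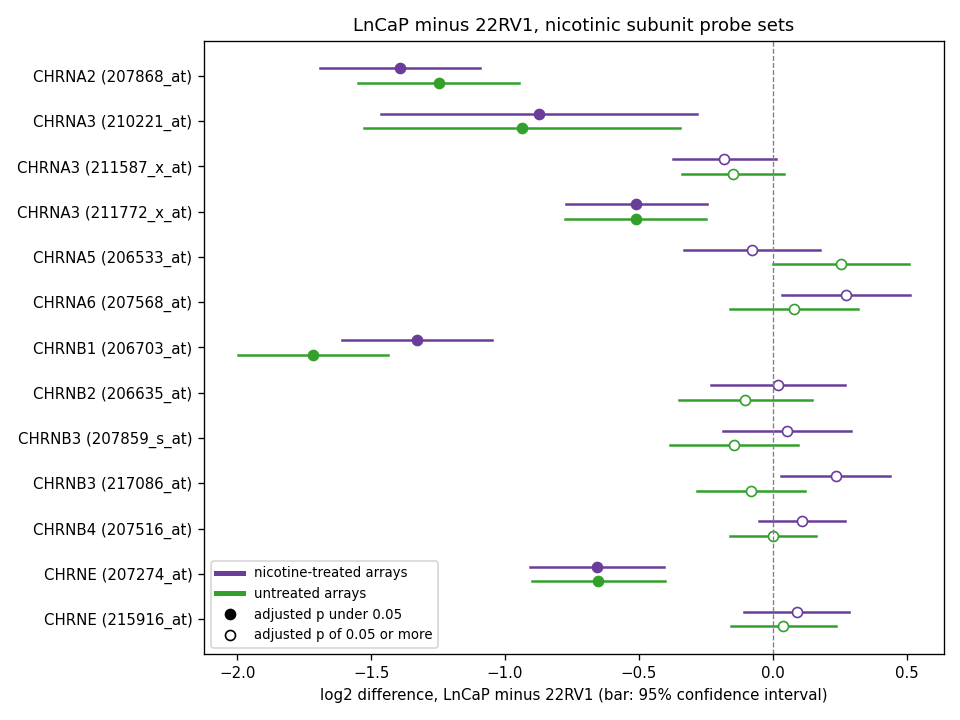
Log2 difference LnCaP minus 22RV1 (x axis) for each subunit probe set, in nicotine-treated and in untreated cells, with 95% confidence intervals from limma. Filled points passed an adjusted p of 0.05. The 5 probe sets of CHRNA2, CHRNA3, CHRNB1 and CHRNE that were called lie left of 0 in both conditions.

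None of the measured subunits passed the test for nicotine. In LnCaP 0 of 13 probe sets were called, against 0.471% of all probe sets (105). That 105 became 4 and 1 without nicotine-treated LnCaP replicates 1 and 2, 2 and 11 without untreated LnCaP replicates 1 and 3, and 2 when only the LnCaP groups were fitted. It stayed at 105 without untreated LnCaP replicate 2 and rose to 134 without nicotine-treated LnCaP replicate 3. Without the arrays numbered 3 it was 146, and with array weights 165. With the replicate number as a block, 0 of 13 were called again, while the background was 3.80% (847). In 22RV1 0 of 13 were called, with or without the block, and 0% of all probe sets were (0 of 22277, with 1148 at an unadjusted p under 0.05). For the difference of the nicotine effects between the lines 0 of 13 were called, against 0% of the table, or 0.247% with the block. At an unadjusted p under 0.05 there were 3 of 13 members in LnCaP, against 10.6% of all probe sets, 0 in 22RV1, against 5.15%, and 1 for the difference, against 6.08%. The average effect of both lines gave 0 of 13, against 0.211% (47 probe sets), or 2.01% with the block. Leaving out any single array brought those 47 down to between 0 and 23. Over the members the nicotine effect ran between -0.33 and 0.37 in LnCaP and between -0.16 and 0.02 in 22RV1, with medians of 0.00 and -0.05.

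The 3 members at an unadjusted p under 0.05 in LnCaP were CHRNA5, CHRNB1 and CHRNB3. CHRNA5 was lower with nicotine in 3 of 3 same-numbered pairs, at 6.83, 6.74 and 6.96 in treated against 7.31, 6.92 and 7.29 in untreated LnCaP, but the groups overlapped through untreated replicate 2. The difference was -0.33 (SE 0.12, 95% confidence interval -0.59 to -0.08, adjusted p = 0.277). In 22RV1 the CHRNA5 interval was -0.25 to 0.25, and the difference of both effects, -0.33 (SE 0.16), did not pass (adjusted p = 0.854).

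CHRNB1 was higher with nicotine in 3 of 3 same-numbered LnCaP pairs and the groups did not overlap, at 5.50, 5.20 and 5.68 in treated against 5.17, 5.02 and 5.06 in untreated cells. The difference was 0.37 (SE 0.13, 95% confidence interval 0.09 to 0.65, adjusted p = 0.273). In 22RV1 it was -0.02 (SE 0.13, adjusted p = 0.999), and the difference of effects was 0.39 (SE 0.18, adjusted p = 0.822). CHRNB3 217086_at read 4.04, 3.93 and 3.94 in treated against 3.69, 3.73 and 3.87 in untreated LnCaP, a difference of 0.21 (SE 0.09, adjusted p = 0.453) without overlap. In 22RV1 the same probe set gave -0.11 (SE 0.09, adjusted p = 0.999), and the difference of effects was 0.32 (SE 0.13, adjusted p = 0.780). The other CHRNB3 probe set, 207859_s_at, gave 0.16 (SE 0.11, adjusted p = 0.712) in LnCaP, and its groups overlapped. Over the 12 arrays it correlated at 0.33 with 217086_at. CHRNB1 and CHRNB3 217086_at were the 2 of 13 probe sets whose LnCaP groups did not overlap, and 15.3% of all probe sets did not.

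For the other subunits the values with and without nicotine overlapped in both lines. CHRNA2 differed by -0.20 (SE 0.14, adjusted p = 0.721) in LnCaP and by -0.05 (SE 0.14, adjusted p = 0.999) in 22RV1, and was lower with nicotine in 6 of 6 same-numbered pairs, as were 4.82% of all probe sets. With the block it joined the 3 members at an unadjusted p under 0.05 in LnCaP (0.0469, adjusted p = 0.279), which made 4 of 13, against 17.4% of all probe sets. Of the 13 member probe sets 5 went one way in all 3 LnCaP pairs, against 37.6% of all. CHRNE 207274_at differed by -0.15 in each line (SE 0.11, adjusted p = 0.756 in LnCaP and 0.999 in 22RV1). CHRNB2 had intervals of -0.25 to 0.24 in LnCaP and -0.38 to 0.12 in 22RV1. CHRNA3 210221_at had the widest ones, -0.51 to 0.67 and -0.57 to 0.61.

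**Figure D4:**
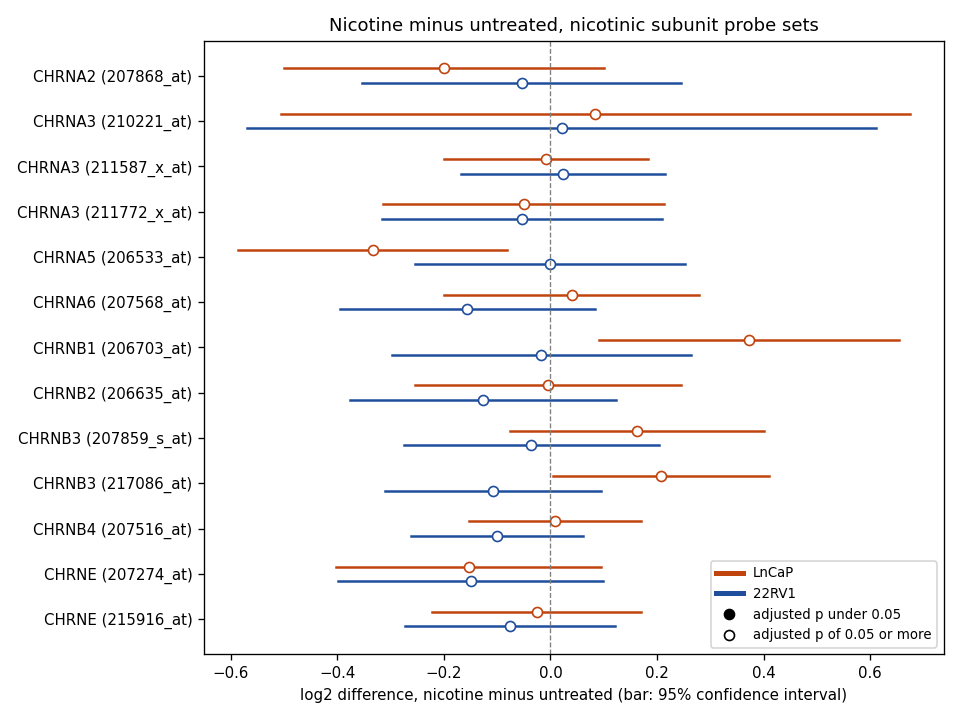
Log2 difference nicotine minus untreated (x axis) for each subunit probe set in LnCaP and in 22RV1, with 95% confidence intervals from limma. All points are open, since 0 of 13 passed an adjusted p of 0.05 in either line, and the LnCaP intervals of CHRNA5, CHRNB1 and CHRNB3 217086_at lie to one side of 0.

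**Figure D5:**
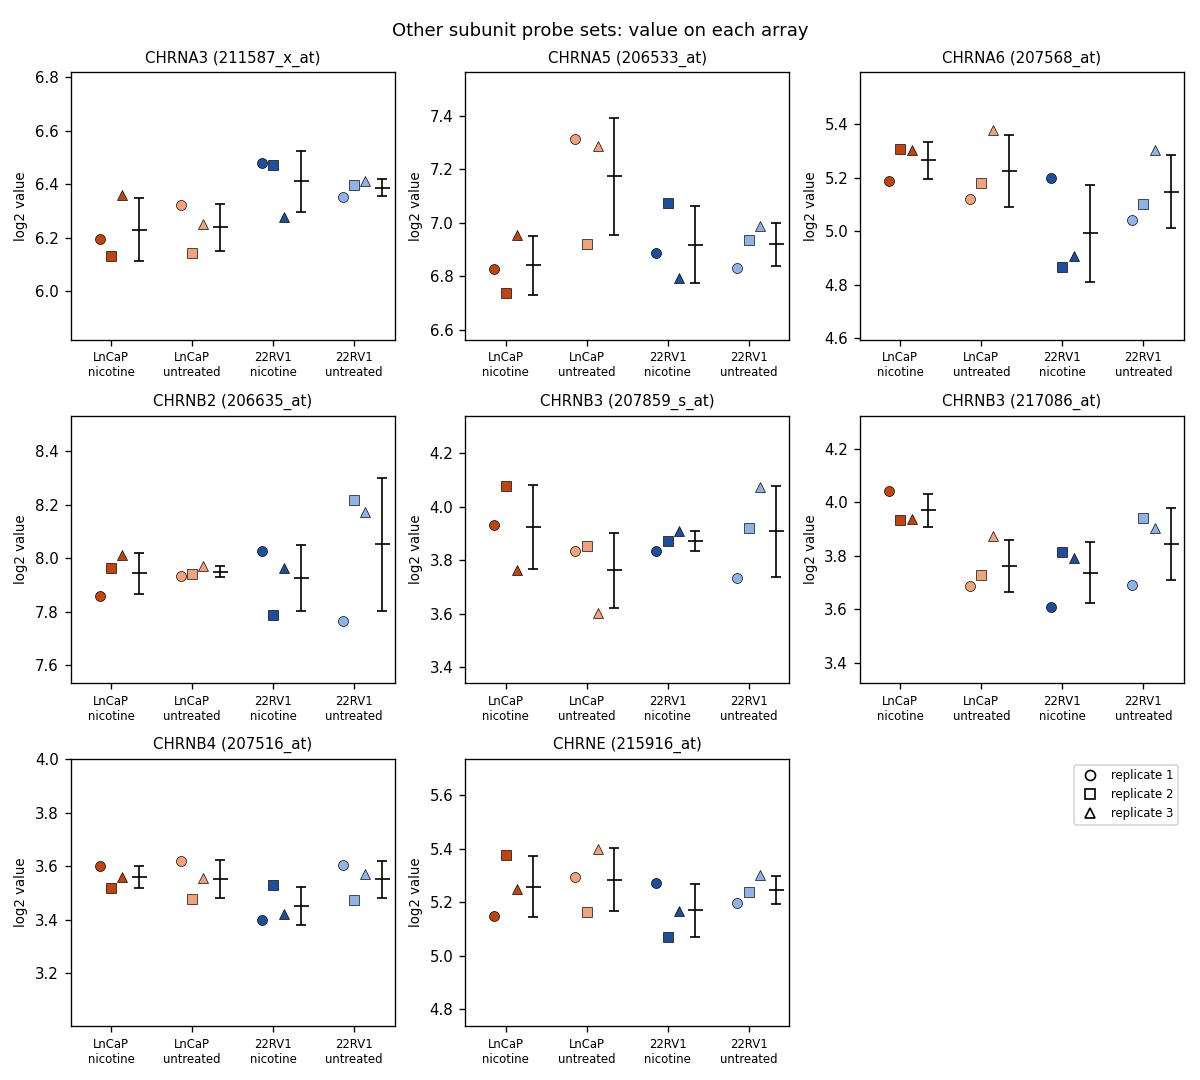
Log2 value (y axis) of the 8 subunit probe sets not called between the lines, with 1 point per array and the mean with SD beside each group of 3. The y axes span the same number of log2 units. CHRNA5 in LnCaP shows 2 high and 1 low untreated array.

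Genes that help receptors fold and reach the surface were measured for 23 of 28 listed, each at its brightest probe set. Between the treated lines 6 were higher and 3 lower in LnCaP, and between the untreated lines 5 were higher and 3 lower. Of all named genes, 49.4% were called between the treated lines (25.9% higher, 23.5% lower) and 47.3% between the untreated lines (25.1% higher, 22.2% lower). LY6E, of the prototoxin-like Ly6 family, was higher by 2.18 (SE 0.16) with nicotine and 2.60 (SE 0.16) without. CRELD2, an endoplasmic reticulum protein, was lower, at -0.91 (SE 0.09) with nicotine and -1.38 (SE 0.09) without, and YWHAH, the 14-3-3 eta protein that binds a neuronal subunit, at -1.07 (SE 0.11) and -0.65 (SE 0.11). The chaperone calnexin (CANX) was lower, at -0.25 with nicotine and -0.39 without. The disulfide isomerase PDIA3, the coat protein COPG1 and the retrieval factor RER1 were higher in both conditions, by 0.64, 0.39 and 0.44 with nicotine, though COPG1 and RER1 in both conditions and PDIA3 in untreated cells lost the call without some single arrays (adjusted p up to 0.0797, 0.146 and 0.0520). COPB1 (0.38) and HSPA5 (0.38) passed with nicotine only and SLURP1 (0.36) without nicotine only, and whether these differ between conditions was not tested. HSPA5 lost its call without each of 4 arrays in turn, at 0.25 (adjusted p = 0.181) without nicotine-treated 22RV1 replicate 3. The list's median difference was 0.07 with nicotine and 0.09 without, against 0.06 and 0.05 over all named genes.

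For nicotine 0 of these 23 passed in the fit of group means in either line, though the block made YWHAH a call in LnCaP (-0.40, adjusted p = 0.0251). Without the block YWHAH had adjusted p = 0.146. CRELD2 was next in LnCaP at 0.28 (SE 0.09, adjusted p = 0.194), and in 22RV1 at -0.19 (SE 0.09, adjusted p = 0.958).

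Of the genes that make, move and break down acetylcholine, 10 of 11 were measured. BCHE, the gene of butyrylcholinesterase, was higher in LnCaP by 4.27 (SE 0.48, adjusted p = 1.254e-05) with nicotine and 3.52 (SE 0.48, adjusted p = 6.839e-05) without. It read 10.53, 10.01 and 9.54 in nicotine-treated LnCaP, 9.60, 9.42 and 8.06 in untreated LnCaP, 6.41, 5.26 and 5.61 in nicotine-treated 22RV1 and 6.41, 4.73 and 5.37 in untreated 22RV1. The choline transporter SLC44A1 was lower in LnCaP in both conditions, at -0.54 (SE 0.11) with nicotine and -0.31 (SE 0.11) without. In treated cells 3 were higher and 2 lower in LnCaP, the rest being CRAT (0.36) and the vesicular transporter SLC18A3 (0.31) higher and choline kinase CHKA (-0.68) lower. In untreated cells 1 was higher and 1 lower. Among all named genes 49.4% were called between the treated and 47.3% between the untreated lines. SLC18A3 with nicotine and SLC44A1 without lost their calls without some single arrays (adjusted p up to 0.156 and 0.132).

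CRAT, carnitine acetyltransferase, was the only gene of the lists called for nicotine without the block. It rose in LnCaP by 0.45 (SE 0.09, adjusted p = 0.0494), at 9.06, 9.23 and 9.06 in treated against 8.76, 8.72 and 8.53 in untreated LnCaP. The groups did not overlap, and 0.577% of named genes were called. CRAT acts mainly in acetyl group transfer to carnitine, and its place on the list comes from reported choline acetylation. Leaving out any one of the 6 LnCaP arrays ended the call, with values of 0.38 to 0.50 and adjusted p of 0.0621 to 0.232. In 22RV1 CRAT read 8.69, 8.86 and 8.74 in treated against 8.77, 8.81 and 8.82 in untreated cells, and the difference of effects, 0.49 (SE 0.12), did not pass (adjusted p = 0.518). With the block BCHE was also called in LnCaP (1.00, adjusted p = 0.0124), against adjusted p = 0.501 without it.

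Some other transmitter receptors were called between the lines. Of 4 muscarinic receptors measured out of 5, CHRM3, the main one of gland and smooth muscle, was lower in LnCaP, at -0.52 (SE 0.13) with nicotine and -0.57 (SE 0.13) without, and CHRM4 at -0.92 (SE 0.19) with nicotine. Of 19 measured of 24 subunits of related Cys-loop channels, 1 was higher and 4 lower in LnCaP with nicotine and 0 higher and 4 lower without, against 49.4% and 47.3% of all named genes called in either direction. The glycine receptor subunit GLRB read 4.39, 4.21 and 4.23 in nicotine-treated LnCaP, 4.06, 4.44 and 4.31 in untreated LnCaP, 6.71, 6.81 and 6.74 in nicotine-treated 22RV1 and 6.98, 6.83 and 6.40 in untreated 22RV1, a difference of -2.48 and -2.47 (SE 0.14). In nicotine-treated and in untreated cells the serotonin channel subunit HTR3A was lower, at -0.90 and -0.93, GABRB1 at -0.80 and -1.16 and GABRB2 at -0.42 and -0.40, and GABRP was higher by 0.22 with nicotine. GABRB1 with nicotine was -0.51 without nicotine-treated 22RV1 replicate 3, and GABRB2 in both conditions and GABRP lost their calls without some single arrays (adjusted p up to 0.136 and 0.101). The list's median difference was 0.01 with nicotine and -0.04 without. No muscarinic or Cys-loop gene was called for nicotine, and the smallest adjusted p was 0.201, of GABRP in LnCaP (0.26, SE 0.08).

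Signalling genes reported downstream of nicotinic receptors were measured for 16 of 21. In treated cells 4 were higher and 3 lower in LnCaP, and in untreated cells 5 were higher and 3 lower. Among all named genes 49.4% and 47.3% were called in either direction. STAT3 was higher by 2.49 (SE 0.12) with nicotine and 2.76 (SE 0.12) without, the phosphoinositide 3-kinase subunit PIK3R1 by 2.36 (SE 0.15) and 1.99 (SE 0.15), the kinase JAK2 by 1.23 (SE 0.21) and 1.13 (SE 0.21) and CREB1 by 0.61 (SE 0.10) and 0.56 (SE 0.10). Protein kinase C alpha (PRKCA) was lower, at -0.85 (SE 0.21) and -0.97 (SE 0.21) and CAMK4 at -0.59 (SE 0.09) and -0.33 (SE 0.09). AKT1 was called with nicotine (-0.26) and CAMK2G without (0.25), both lost when some single arrays were left out (adjusted p up to 0.118 and 0.0961). FOS was called without nicotine, at -1.75, but untreated 22RV1 read 8.79, 5.90 and 5.58, and the difference was -0.74 (adjusted p = 0.00756) without its replicate 1. Leaving out any one untreated LnCaP array ended that call (adjusted p up to 0.0847). For nicotine 0 of 16 were called in either line, and the smallest unadjusted p in LnCaP belonged to AKT1 (-0.18, SE 0.09, adjusted p = 0.579).

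CHRNA3 and its genome neighbours did not go the same way between the lines. PSMA4, a proteasome subunit beside CHRNA5, was higher in LnCaP by 0.80 (SE 0.11) with nicotine and 0.69 (SE 0.11) without, and the protease CTSH by 2.25 (SE 0.12) and 2.22 (SE 0.12). CHRNA3 was lower at 210221_at and 211772_x_at and uncalled at 211587_x_at, its brightest probe set. CHRNA5 and CHRNB4 were uncalled. MORF4L1 was higher by 0.22 with nicotine, a call lost without each of 5 arrays in turn (adjusted p up to 0.154). Of transcription factors reported at subunit promoters, 8 of 10 were measured, 0 were higher and 3 lower in LnCaP in each condition. The share called lower among all named genes was 23.5% with nicotine and 22.2% without. In either direction 49.4% and 47.3% were called. In nicotine-treated and in untreated cells TFAP2A was lower, at -4.17 (SE 0.17) and -4.25 (SE 0.17), E2F1 at -0.77 (SE 0.16) and -0.51 (SE 0.16) and RB1 at -0.55 (SE 0.17) and -0.81 (SE 0.17). RB1 with nicotine and E2F1 without lost their calls without some single arrays (adjusted p up to 0.0730 and 0.0848). SP1 did not pass, at -0.34 (adjusted p = 0.121) with nicotine and -0.20 (adjusted p = 0.373) without. For nicotine 0 of the 4 measured neighbours and 0 of the 8 factors passed in either line.

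The genes whose values ran most like the called subunits over the 12 arrays were lower in untreated LnCaP, which follows from that choice. Their log2 differences there lay between -4.58 (TOX3) and -0.39 (CANX). For CHRNB1 the genes were TOX3 (r = 0.990), SSX3 (0.988) and CANX (0.987). For CHRNA2 they were KLC2 (0.993), EPHA3 (0.991) and NUP210 (0.990), and 812 probe sets exceeded an r of 0.95 with it. For CHRNE 207274_at they were ACTMAP (0.984), PAPSS1 (0.980) and CDC25B (0.974), and for CHRNA3 211772_x_at CDC42EP1 (0.984), PSIP1 (0.977) and ERLIN1 (0.977). For CHRNA5 they were POLR3K (0.887), MAK16 (0.884) and MTHFD1 (0.881). Arrays of a group share their line and treatment, so such values describe the order of the groups.

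Once each group's mean was removed, the list changed. For CHRNA5 it was led by ATXN3 (0.974), FANCI (0.974) and YME1L1 (0.957), for CHRNA3 211772_x_at by LEF1 (0.982) and ERLIN1 (0.960), for CHRNE by PAPSS1 (0.938), for CHRNA2 by TPD52 (0.970) and for CHRNB1 by MRPS18C (0.955). PAPSS1 for CHRNE and ERLIN1 for CHRNA3 were named both ways. These correlations over 12 arrays were picked as the highest of the table and carry no test.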

How the data were processed

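The samples were 12 single-colour Affymetrix arrays of LnCaP and 22RV1 cells, 4 groups of 3, as the labels give them. The authors deposited log2 expression values of 22277 probe sets, and the sources used here do not name their normalization, software or scan dates. No filter was applied. The platform annotation gave 1 symbol to 19070 probe sets, several to 1043 and none to 2164, and updating symbols changed 0. All 12 arrays were fitted in limma 3.58.1 (R 4.3.3; lmFit and eBayes on 4 group means), p-values were adjusted by Benjamini-Hochberg over all probe sets within a contrast, tests were two-sided and the threshold was 0.05. The contrasts were nicotine against untreated in each line, their average and difference, and LnCaP against 22RV1 with and without nicotine. The number of arrays limits the precision: the median SE of a nicotine effect was 0.11. The script was tested on simulated data.

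Lists were read at the brightest probe set of each of 11963 named genes. Members, lists and markers were chosen with earlier results of these data known. All listed subunits are named. Of a gene list, genes called in a contrast are named, otherwise those with the smallest p. Of the cell type markers, only some of the called genes are named. The genes most like a subunit are the highest Pearson correlations.

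Replicate numbers come from the labels. Within a line, same-numbered treated and untreated arrays deviated together (correlations of 0.18 to 0.63, each above 0.1). Arrays of unlike number reached 0.26, for nicotine-treated replicate 1 and untreated replicate 2 of LnCaP, above the 0.18 of its replicates 2. A fit with the number as a block, treating same-numbered arrays as pairs, was an alternative. Others left out single arrays, left out replicate 3, kept 1 probe set per gene or those above the median, centred or quantile-normalized the arrays, weighted arrays, or used only the groups compared. Motifs were counted by exact match in the RefSeq promoter table.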

Additional observations from a re-analysis of the deposited data

How the results depend on the processing

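The count of member probe sets called for nicotine was 0 in LnCaP, in 22RV1, for the average and for the difference of effects under each alternative run (14, 14, 19 and 19), the replicate block included. Leaving out single arrays gave 0 to 0 in each. Of 802 single-member nicotine values under alternatives, 0 had an adjusted p under 0.05 and 76 changed sign, all of them uncalled. With the number within a line as a block, the smallest adjusted p in LnCaP was 0.0847 (CHRNA5), and CHRNB1 had 0.0949. The block changed no call of a subunit for nicotine.

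Between the lines, 5 probe sets were called in each comparison. Leaving out single arrays gave 4 to 6 in each. With 1 probe set per gene, the brightest, 9 of the 13 were kept and the count was 3 in treated and 3 in untreated cells. CHRNA3 was then read at 211587_x_at, which was not called. With probe sets above the median only the count was 1 and 1, since few members were kept. Across the lines same-numbered arrays deviated together only weakly (correlations 0.08 to 0.23, against -0.175 to 0.108 for unlike numbers). A replicate block over both lines gave 6 calls in treated and 5 in untreated cells (50.6% and 48.1% of all probe sets). The added one was CHRNB3 217086_at in treated cells (0.23, adjusted p = 0.0417).

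CHRNB1, CHRNA2, CHRNE 207274_at and CHRNA3 211772_x_at kept direction and call in both line comparisons under each alternative that held them. Of these, only CHRNA2 was in the run above the median. CHRNA3 211772_x_at was also left out of the run with 1 probe set per gene. CHRNA3 210221_at lost its call without some single arrays. Centring arrays on their median made CHRNA5 a call in untreated cells (0.32, adjusted p = 0.0485) and CHRNA6 (0.33, adjusted p = 0.0267) and CHRNB3 217086_at (0.29, adjusted p = 0.0257) calls in treated cells, all higher in LnCaP. Quantile normalization did so for CHRNA6 (0.28, adjusted p = 0.0368), and array weights for CHRNB3 217086_at (0.26, adjusted p = 0.0306). CHRNA3 211587_x_at became a call, lower in LnCaP, without 22RV1 nicotine replicate 3 (-0.25, adjusted p = 0.0480), without the arrays numbered 3 (-0.31, adjusted p = 0.0213) and with array weights (-0.24, adjusted p = 0.0249). The cause of these changes was not tested. Of the list genes called between the lines, 11 of 56 in treated and 10 of 49 in untreated cells lost the call without at least 1 single array, a check added after the values were seen.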

Other observations

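Genes beside the called muscle-type subunits were picked after their values were seen. Around CHRNB1 the called ones went both ways between the lines, and around CHRNE they were higher in LnCaP. Among all named genes 49.4% were called between the treated and 47.3% between the untreated lines. Around CHRNB1 on chromosome 17, YBX2 differed by -1.52 (LnCaP minus 22RV1, adjusted p = 1.421e-05) in nicotine-treated and by -2.29 (adjusted p = 4.96e-07) in untreated cells. EIF5A differed by -0.71 in both, and TNK1, the nearest measured gene on that side, by -0.62 and -0.50. GPS2 passed in nicotine-treated cells only (-0.46). The next gene on the other side, POLR2A, differed by -0.56 and -0.71, TNFSF13 by 1.01 and 0.60 and SENP3 by 0.88 and 1.03. Around CHRNE, on the same chromosome, the nearest measured gene on one side, MINK1, differed by 0.95 (adjusted p = 9.184e-05) and 1.42 (adjusted p = 3.406e-06), opposite to CHRNE, and the nearby ENO3, a muscle enolase, by 0.69 and 0.82. SLC25A11 differed by 0.41 and 0.29, and GP1BA passed in untreated cells only (0.30). PFN1, PSMB6 and PLD2 did not pass in either condition.

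The number of arrays, 3 in each group, limits the precision of these values. The table gives no call of detection, which matters most for the lowest probe sets, those of CHRNB3 and CHRNB4. Messenger RNA was measured and not assembled receptor.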
